A study of Mus musculus with 8 samples.

Results

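Lpl, Cd36 and Lipe, 3 genes that move fat into and out of the adipocyte, were followed across 4 mouse lines in epididymal fat, a visceral fat depot of male mice. They were chosen by symbol: every probe set that the platform annotation names Lpl, Lipe or Cd36 was taken, which gave 5 of the 13179 probe sets on the arrays, for 3 of 6137 named genes. The lines were DU6, DU6i, DUKs and DBA, and the series title places the first pair against the second. As general knowledge that the labels do not give, DU6 was bred for high body weight, DU6i is an inbred line taken from it, DUKs is its unselected control line and DBA is an inbred strain. RNA of 20 males of a line, all 42 days old, was combined into 1 pool, and each pool was read on 1 Affymetrix array of each of 2 designs, chip A and chip B, which makes 8 arrays. No line had a replicate, so a difference between a pair of lines carries no test. In tissue RNA, fewer cells of a type and less RNA per cell cannot be told apart.

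Triglyceride from the blood is split on the capillary wall by lipoprotein lipase, the product of Lpl, and the freed fatty acids enter the fat cell with the help of CD36, a fatty acid translocase on its surface. Inside the cell they are stored as triglyceride. Stored fat is released again by lipolysis, in which adipose triglyceride lipase, hormone-sensitive lipase (the product of Lipe) and monoacylglycerol lipase act in turn under adrenergic control and against insulin. Lpl and Cd36 are also made by macrophages, Cd36 by capillary endothelium, and Lipe has a testis form.

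In the mouse genome (GRCm38.p6) Lpl (Entrez 16956) lies on chromosome 8 at 68880555 to 68906932, Cd36 (Entrez 12491) on chromosome 5 at 17781690 to 17888959 and Lipe (Entrez 16890) on chromosome 7 at 25379527 to 25398486. The RefSeq promoter table for that build holds 2 starts of Lipe, 1 of Cd36 and none of Lpl, so no Lpl sequence is shown. The 250 bases before the first Lipe start and before the Cd36 start are shown because both genes had their highest chip A signal in the DU6i pool. Capitals mark each match, on either strand, to 5 searched motifs: the nuclear receptor motif AGGTCA, the E-box CACGTG, the GC box GGGCGG, the CCAAT box and the TATA box TATAAA.

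Lipe, chr7:25395988-25396237, minus strand: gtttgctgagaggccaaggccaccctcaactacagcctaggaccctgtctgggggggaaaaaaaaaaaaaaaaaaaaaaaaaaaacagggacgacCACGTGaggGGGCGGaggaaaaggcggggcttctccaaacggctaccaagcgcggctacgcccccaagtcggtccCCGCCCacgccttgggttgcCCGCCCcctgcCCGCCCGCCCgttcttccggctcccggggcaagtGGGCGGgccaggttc

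Cd36, chr5:17835897-17836146, minus strand: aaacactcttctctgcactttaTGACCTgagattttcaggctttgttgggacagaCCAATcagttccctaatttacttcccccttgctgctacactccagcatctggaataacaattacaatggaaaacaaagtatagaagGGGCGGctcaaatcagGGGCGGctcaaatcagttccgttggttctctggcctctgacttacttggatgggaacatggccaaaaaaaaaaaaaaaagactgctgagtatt

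The Lipe sequence, with a GC content of 62.8%, held 1 E-box beginning 155 bases before the start and 6 GC boxes, some of which overlap. The Cd36 sequence, at 43.2% GC, held 1 AGGTCA (228 bases before the start), 1 CCAAT box (195 bases) and 2 GC boxes (109 and 93 bases). No searched motif was found in the 250 bases before the second Lipe start. Over all 32851 promoters of that length, AGGTCA was present in 14.02%, CACGTG in 6.02%, GGGCGG in 32.7%, CCAAT in 33.8% and TATAAA in 12.4%. A match describes these letters and is no evidence of binding.

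The arrays of chip A differed in how far their signals reached, and this bears on every bright gene. Each array had been scaled by the authors to a common level: with the lowest and highest 2% of signals set aside, every mean was 2500. The 99th percentile of chip A was nevertheless 18810 in DU6, 34793 in DU6i, 27552 in DUKs and 23450 in DBA, while those lines, in that order, reached 49489, 34692, 52203 and 33621 on chip B. The chip A control for pyruvate carboxylase lost signal toward the 5' end unequally: its middle probe set kept 15.3% of the 3' level in the DU6 pool, 54.5% in DU6i, 53.9% in DUKs and 19.5% in DBA. Chip B split the lines alike for this control. The 3' to 5' ratio of the actin control on chip A had another order: 2.12 in DU6, 2.46 in DU6i, 1.73 in DUKs and 2.33 in DBA. For Gapdh, in the same order of lines, it was 0.90, 1.03, 1.18 and 1.22. On chip B the actin ratio was 2.75, 1.72, 1.66 and 1.90, and that of Gapdh was 1.44, 0.90, 1.41 and 0.86. Mature adipocyte markers were present as the label states: all 9 on chip A were above the floor in DU6, DU6i and DBA and 8 in DUKs, and all 5 on chip B in every line. The floor, taken as the level of noise, was 1022.8 on chip A and 2258.25 on chip B, the 95th percentile of the sizes of each chip's negative signals. Male germ cell markers were highest in DUKs, with a summed chip A signal of 153794 against 74987 in DBA, 34444 in DU6 and 30613 in DU6i. Gpx5, an epididymal marker, read 49126 in DU6, 52044 in DUKs and 20753 in DBA on chip B and was below 0 in DU6i.

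The results rest on 4 readings, since 4 of the 5 probe sets were above the floor on all arrays of their chip. These were Lpl (aa683731_s_at), Lipe (u08188_s_at) and Cd36 (L23108_f_at) on chip A, and a second Cd36 probe set, made from the same database entry, on chip B. They were among the brightest features: 3.68% of the 6529 probe sets of chip A were brighter than Lpl, 1.70% brighter than Cd36 and 0.613% brighter than Lipe, and 1.06% of chip B were brighter than Cd36. The other Lpl probe set, j03302_rc_at, had signals of 165.7 in DU6, 330.1 in DU6i, 496.7 in DUKs and 204 in DBA. All of these were under the floor, so it gave no ratio. In Affymetrix names rc marks the reverse complement of a database entry, and the suffixes _s_at and _f_at mark probes that can also match related sequences.

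Lpl, the enzyme of lipid uptake, was lowest in DU6 and highest in DU6i. Its signal was 7000.5 in DU6, 27218 in DU6i, 19095 in DUKs and 15474 in DBA. DU6 stood below the other 3 lines, and the highest signal was 3.89 times the lowest. As a share of the 99th percentile of the same array, Lpl reached 37.2% in DU6 and between 66.0% and 78.2% elsewhere.

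In the pair DU6 and DUKs, Lpl was 2.73-fold lower in DU6 (log2 ratio -1.45), beyond the technical SD of 0.44. That SD was derived from 346 genes with a pair of probe sets measured in both lines. It covers differences between probe sets, not between animals or pools, and was not set for bright genes alone. In 48 genes bright on both chips, described below, the chip A ratio less the chip B ratio had a median of -0.46 in this pair. It ran from -2.10 to 0.44, and in DU6 against DU6i the median was -0.79. For readings as bright as Lpl and Lipe the SD may therefore be too small, here and in the other pairs. Of the 3 readings on chip A, Lpl and Lipe were lower at 2-fold or more, where 5.78% of the 3600 chip A probe sets measured were. In DU6i against DBA the ratio ran the other way: Lpl was 1.76-fold higher in DU6i (log2 ratio 0.81, technical SD 0.34). At 2-fold or more, 4.31% of chip A probe sets were higher in that pair and Lpl was not among them.

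The DU6 pool was also low beside the remaining lines. Against DBA, Lpl was 2.21-fold lower (log2 ratio -1.14, technical SD 0.36), the 1 chip A reading of the 3 past 2-fold, where 3.69% of chip A probe sets were lower. Against DU6i it was 3.89-fold lower (log2 ratio -1.96, technical SD 0.45), and Lpl and Lipe passed 2-fold in that pair, where 4.99% did. These pairs share the DU6 array and are not independent. In the order of levels, DU6i over DUKs (0.51 in log2) exceeded the technical SD of 0.40, while DUKs over DBA (0.30) stayed within 0.41.

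**Figure D1:**
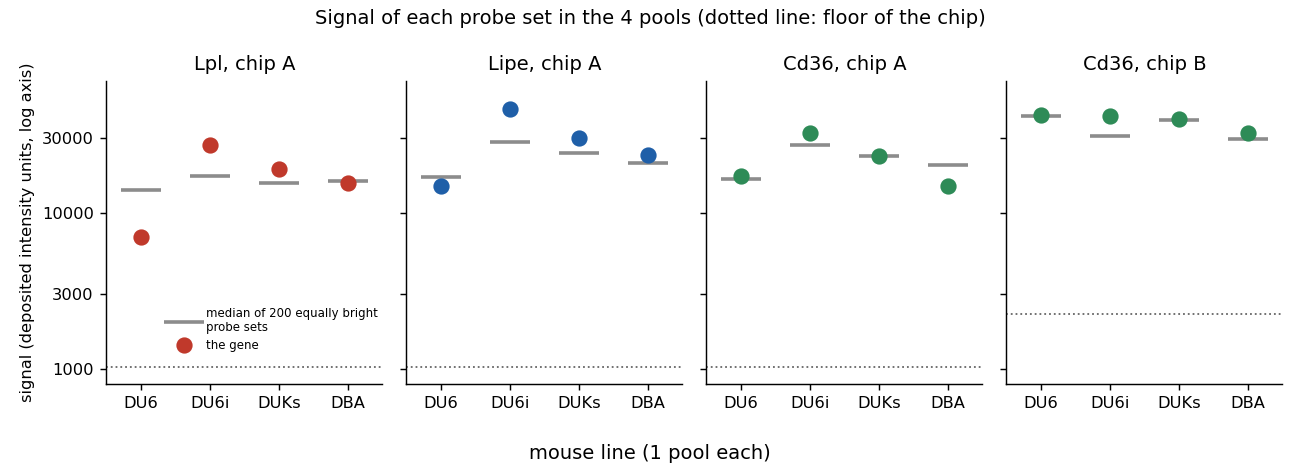
Signal of each probe set in the 4 pools on a log axis, in deposited intensity units, with 1 point per line, a grey bar for the median of 200 equally bright probe sets of the chip and a dotted line at the floor. Lpl read 7000.5 in DU6 where its neighbours had a median of 14028, while Cd36 lay close to its neighbours in DU6 on both chips.

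Because bright probe sets moved together on chip A, each gene was set beside the 200 probe sets nearest to it in mean log2 signal. For Lpl and for Cd36 on chip A, 100 of the 200 were brighter and 100 dimmer. The match was uneven for Lipe, with 40 brighter and 160 dimmer, and for Cd36 on chip B, with 69 and 131. The neighbours of Lpl had a median log2 ratio of -0.13 in DU6 against DUKs, with the 5th to 95th percentile from -1.11 to 0.49. Lpl lay at percentile 4 of them, and at percentile 2.5 against DBA and 3 against DU6i. Its low level in DU6 was therefore outside the central range of equally bright probe sets in all 3 pairs, which share the DU6 array. Brightness was matched on the mean over the lines, which includes the low DU6 reading of Lpl. The neighbours' median signal was 17239 in DU6i, 15629 in DUKs and 15919 in DBA, where Lpl read 27218, 19095 and 15474. Less the neighbours' median, the log2 ratio was -1.31 against DUKs, -0.95 against DBA and -1.70 against DU6i.

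The remaining Lpl ratios lay inside that range. In DU6i against DBA it stood at percentile 89, in DU6i against DUKs at percentile 77.5 and in DUKs against DBA at percentile 82. After quantile normalisation, which gives the 4 arrays of a chip 1 distribution, the ratio was -1.49 in DU6 against DUKs and 0.46 in DU6i against DBA. The first differed little from the deposited scale and the second was smaller.

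Lpl was also low in DU6 beside the mature adipocyte markers of its chip. Their median log2 ratio over 9 genes was -0.68 in DU6 against DUKs, -0.35 against DBA and -1.18 against DU6i, and their summed signal was 127359 in DU6, 282476 in DU6i, 182632 in DUKs and 150172 in DBA. Lpl lay below that median by -0.77, -0.79 and -0.78 in log2. In DU6i against DBA it lay at -0.12 from the markers' median of 0.93. The 5 adipocyte markers of chip B, other genes read in the same pools, ordered the lines differently. Their signals summed to 167277 in DU6, 91061 in DU6i, 179490 in DUKs and 91698 in DBA. The median log2 ratio of those 5 was -0.13 in DU6 against DUKs, 0.67 against DBA and 0.23 against DU6i. The part that adipocyte content, array range or the 5' control signal had in the Lpl readings was not tested.

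**Figure D2:**
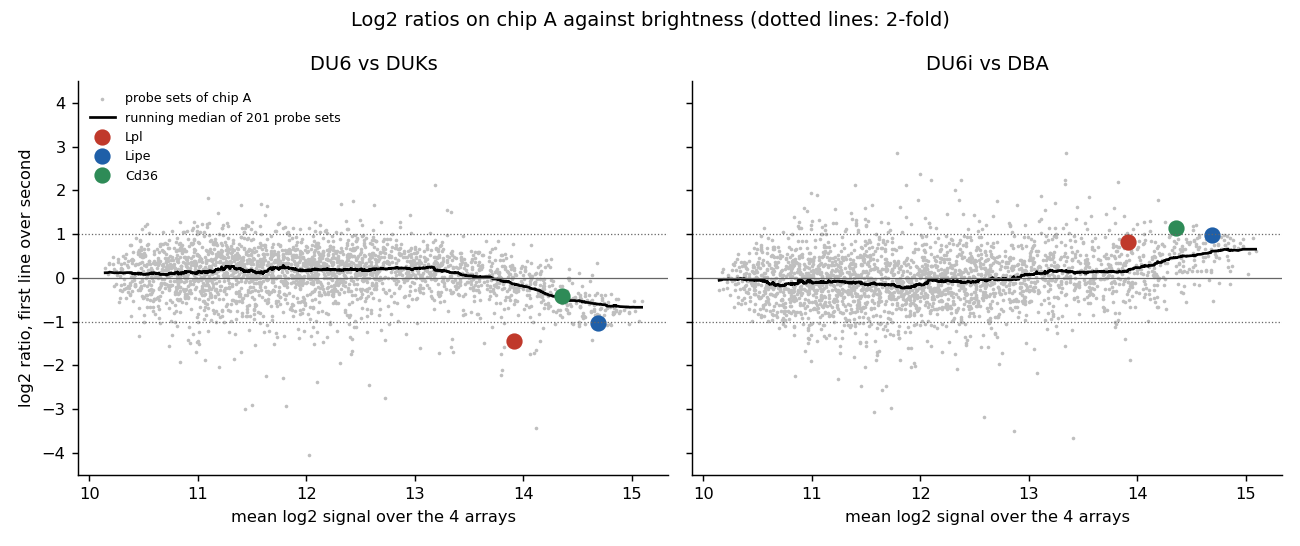
Log2 ratio of each chip A probe set above the floor on all 4 arrays against its mean log2 signal, for DU6 over DUKs and DU6i over DBA, with a running median and dotted lines at 2-fold. The median bends down at the bright end in DU6 against DUKs and up in DU6i against DBA, and Lpl (log2 ratio -1.45) lies well under it in the first pair.

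On the deposited scale Cd36, the fatty acid translocase, had the narrowest spread on chip B and a wider spread on chip A. On chip B its signal was 42621 in DU6, 41487 in DU6i, 40202 in DUKs and 32278 in DBA, a 1.32-fold range. Each step in this order was within the technical SD, while DU6 over DBA (0.40 in log2, SD 0.36) and DU6i over DBA (0.36, SD 0.34) were just beyond it. On chip A the signal was 17342 in DU6, 32706 in DU6i, 23280 in DUKs and 14841 in DBA, a 2.20-fold range. On that scale DBA was lowest on both chips, and the order of the other 3 lines differed between them. After quantile normalisation DU6i was highest on chip B too, at 0.59 over DUKs in log2 (technical SD 0.40). DU6 over DU6i was then -0.55 (SD 0.45). The same ratios on chip A were 0.18 and -0.11. Without that normalisation the chip B ratios of these pairs lay at percentiles 81 and 17 of their neighbours.

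DU6 and DUKs were close for Cd36 on both chips. The log2 ratio was 0.08 on chip B and -0.42 on chip A, both within the technical SD of 0.44, and these lay at percentiles 60 and 54 of equally bright probe sets. The chip A value turned to 0.045 less the neighbours' median and to 0.067 after quantile normalisation. In DU6i against DBA the ratio was 0.36 on chip B and 1.14 on chip A. The chip A value, 2.20-fold higher in DU6i, was the 1 member reading at 2-fold or more in that pair, and lay at percentile 96.5 of its neighbours, whose median was 0.46. The chip B value lay at percentile 93.5.

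On the deposited scale the chips disagreed on Cd36 by 0.78 in log2 in DU6i against DBA and by -0.95 in DU6 against DU6i. Both were more than the technical SD of a difference (0.48 and 0.64). Other bright genes did so as well. A further 48 genes had a mean signal of at least 10000 on both chips, a limit chosen after the data were seen. In DU6 against DUKs the chip A ratio was below the chip B ratio in 42 of the 48, by a median of -0.46, and for Cd36 by -0.51. In DU6i against DBA the chip A ratio was above the chip B ratio in 42 of the 48, by a median of 0.37, and 43 of the 48 had a smaller excess than Cd36. The median was -0.79 in DU6 against DU6i, where Cd36 had -0.95. It was -0.49 in DU6 against DBA (Cd36 -0.18) and 0.37 in DU6i against DUKs (Cd36 0.45). In DUKs against DBA the chips showed no common direction, with 20 genes above and 28 below and a median of -0.16, and Cd36 was at 0.33.

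DBA's low Cd36 reading on chip A stood out among equally bright probe sets against each other line: the percentile was 95.5 in DU6 against DBA, 96.5 in DU6i against DBA and 96.5 in DUKs against DBA. On chip B these percentiles were 41, 93.5 and 45.5. Quantile normalisation left the chip A ratios at 0.61, 0.72 and 0.54 and the chip B ratios at -0.11, 0.44 and -0.15. The chips therefore gave opposite signs for DU6 against DBA and for DUKs against DBA under that setting. Macrophages and endothelium also make Cd36, and DBA had the lowest summed macrophage signal on both chips. At least 1 array measured each of the 6 macrophage markers of chip A and the 10 of chip B, with sums of 58186 and 147172 in DU6, 71587 and 121720 in DU6i, 66040 and 98968 in DUKs, and 46559 and 77680 in DBA. Endothelial markers of chip A, 5 of 7 above the floor on an array, summed to 16006 in DU6, 17731 in DU6i, 13290 in DUKs and 11028 in DBA, lowest in DBA. The 5 of chip B summed to 70487, 64704, 50420 and 56331, lowest in DUKs. Their part in the Cd36 readings was not tested.

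Lipe, the hormone-sensitive lipase of fat release, followed the order of Lpl and the order of the array ranges. Its signal was 14763 in DU6, 46226 in DU6i, 30054 in DUKs and 23530 in DBA, a 3.13-fold range with DU6 lowest and DU6i highest. As a share of the 99th percentile of the array it was 78.5% in DU6, 132.9% in DU6i, 109% in DUKs and 100.3% in DBA.

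Between DU6 and DUKs, Lipe was 2.04-fold lower in DU6 (log2 ratio -1.03, technical SD 0.44) and 1.96-fold higher in DU6i than in DBA (0.97, SD 0.34). The first lies just past 2-fold and the second just short of it. It was 1.59-fold lower in DU6 than in DBA (-0.67, SD 0.36) and 3.13-fold lower in DU6 than in DU6i (-1.65, SD 0.45). DU6i over DUKs (0.62) exceeded the SD of 0.40, and DUKs over DBA (0.35) was within 0.41.

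The 200 neighbours of Lipe in brightness, 160 of them dimmer than Lipe and 40 brighter, had median ratios of the same sign as Lipe in these pairs. Their median was -0.51 in DU6 against DUKs, 0.49 in DU6i against DBA and -0.79 in DU6 against DU6i, where 33% of them differed by 2-fold or more. Lipe stood at percentiles 8, 93 and 4.5, outside the central 5th to 95th range only in the last. Less the neighbours' median its log2 ratios were -0.52, 0.49 and -0.86, and after quantile normalisation -0.69, 0.29 and -0.88. The percentiles and the values less the neighbours' median rest on a mostly dimmer set.

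Lipe lay nearer to the adipocyte markers of chip A than Lpl did. It was at -0.35 from their median in DU6 against DUKs, 0.04 in DU6i against DBA and -0.46 in DU6 against DU6i. Male germ cell markers, of a tissue that makes a form of Lipe, lay lower in DU6 for 16 of 16 measured against DUKs (median -1.84) and lower in DU6i for 12 of 12 against DBA (median -1.03), while Lipe was higher in that second pair. Their part in the Lipe reading, and that of the array range, was not tested. Only 1 probe set named Lipe was on the arrays.

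**Figure D3:**
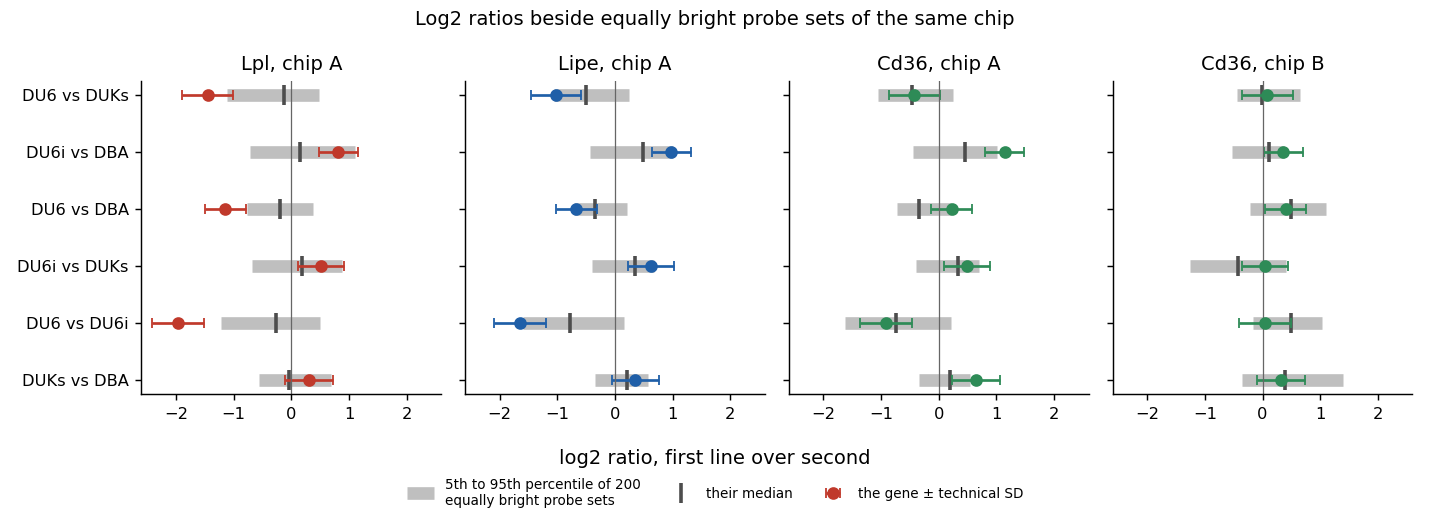
Log2 ratio of each reading in the 6 pairs of lines (points, with the technical SD as bars) beside the 5th to 95th percentile (grey band) and median (dark tick) of 200 equally bright probe sets. Lpl lies left of the band in the 3 pairs with DU6, and the remaining pairs place it inside.

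Set side by side, the ratios of Lpl and Lipe differed by less than the technical error. The log2 ratio of Lpl less that of Lipe was -0.42 in DU6 against DUKs and -0.16 in DU6i against DBA, within the technical SD of a difference of 0.62 and 0.48. Lpl less Cd36 on chip A was -1.02 in DU6 against DUKs, -1.37 in DU6 against DBA and -1.04 in DU6 against DU6i, each beyond that SD. So on the same array, DU6 had less Lpl relative to Cd36 than the other 3 lines had.

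The contrast of the series title, DU6 and DU6i against DUKs and DBA, averages lines that differed from each other. In limma, with Benjamini-Hochberg adjustment over both chips, none of the 5267 probe sets passed 0.05 (0%), and 252 had an unadjusted p under it (4.78%). Lpl differed by -0.32 (SE 0.62), Lipe by -0.03 (SE 0.55), Cd36 by 0.22 (SE 0.30) on chip B and by 0.36 (SE 0.41) on chip A, each with an adjusted p of 0.9998 in limma. The replicates there are lines, 2 a side, and DU6i descends from DU6. Without DU6 the Lpl difference was 0.66 and the Lipe difference 0.80, so both changed sign. The Lipe difference, far smaller than its SE, also changed sign without DUKs (0.15). An exact two-sided permutation test of 2 lines against 2 cannot go below 0.333.

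Patterns over the lines were compared by the root mean square difference of log2 signals centred on their mean. The compared set was every probe set of the chip above the floor on all 4 arrays, with or without a gene name. Only the nearest genes listed here were limited to named genes, with 1 probe set a gene. Lpl was nearest to Zfp385a (0.15), Serf2 (0.16), Surf4 (0.17), the adipokine gene Retn (0.18) and Lipe (0.18). Within 0.2 of Lpl came 15 of 2655 probe sets (0.565%). For Lipe the nearest were Retn (0.01), Igfbp7 (0.05), the ATP synthase subunit Atp5b (0.06), the citrate carrier Slc25a1 (0.06) and Serf2 (0.08). Retn had signals of 13502, 42936, 28046 and 21591 in DU6, DU6i, DUKs and DBA, a course that lies almost on that of Lipe. A further probe set of Serf2 on chip A did not share its pattern.

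The Lipe pattern was common and the Lpl pattern was less so. Within 0.2 of Lipe came 62 of 2655 probe sets (2.34%). The order of lines that both genes have was found in 6.78% of those probe sets. Among the probe sets equally bright to Lpl it was found in 17%, and among those equally bright to Lipe in 56.5%. For Cd36 on chip A the nearest genes were Tshr (0.09), S100a6 (0.09), Pparg (0.09), the nuclear receptor of fat cell formation, Nrp1 (0.10) and Nab1 (0.11). Of the probe sets compared, 2.64% were within 0.2. On chip B they were Tnks1bp1 (0.04), Tbcb (0.06), Bcap31 (0.06), Lgals3bp (0.07) and Acp2 (0.07). There 189 of 1317 probe sets (14.4%) were within 0.2, so this flat course on the deposited scale is shared by many.

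Other genes of lipid uptake did not move as a group. Of 38 listed genes 19 were on the arrays, and in DU6 against DUKs 1 of 19 measured was higher at 2-fold or more and 3 were lower, where 3.91% and 6.3% of all probe sets of both chips were. The list's median log2 ratio was 0.20, beside 0.05 for all probe sets, but -0.55 for its 13 genes on chip A. In DU6i against DBA none of 18 was higher and 1 was lower, where 4.79% and 6.68% of all probe sets were, with a median of 0.26 beside -0.03.

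The uptake genes past 2-fold were carriers and receptors. Fabp5, a fatty acid binding protein, read 32775 in DU6, 33300 in DU6i, 13759 in DUKs and 26032 in DBA on chip B, so that DUKs stood below the rest and DU6 was 2.38-fold above it. Fabp3, the heart form, read 6625 in DUKs and 1519 in DU6, 4.36-fold less, and did not reach the floor in DU6i or DBA. Scarb1, a lipoprotein receptor, read 3901 in DU6i, 3226 in DUKs and 3212 in DBA. In DU6 it did not reach the floor and was at least 3.15-fold lower than in DUKs.

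Slc27a1, a fatty acid transport protein, was low in DU6 as Lpl was. It read 3559 in DU6, 6568 in DU6i, 7726 in DUKs and 5585 in DBA, a 2.17-fold difference between DU6 and DUKs, and its chip B probe set gave a log2 ratio of -0.56. Slc27a2, of the same family, read 1233 in DU6i and 3094 in DBA, 2.51-fold lower in DU6i. Its other probe set read 1342 in DBA and did not reach the floor in DU6i, which gives only a bound of -0.39 in log2. Fabp4, the main fatty acid carrier of the adipocyte, read 21433 in DU6, 48639 in DU6i, 34237 in DUKs and 27836 in DBA, with log2 ratios of -0.68 and 0.81 in the main pairs. Angptl4, a secreted inhibitor of lipoprotein lipase, read 13242, 17473, 11440 and 9225, and its ratios were 0.21 and 0.92. In DU6, where Lpl was lowest, Angptl4 was not. Gpihbp1, the protein that carries lipoprotein lipase to the capillary wall, had no probe set annotated to it alone and was not analysed here.

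Of 39 genes of lipolysis 19 were on the arrays, and few passed 2-fold. In DU6 against DUKs none of 18 was higher and 1 was lower, where 3.91% and 6.3% of all probe sets were, with a median of -0.07 beside 0.05 for all. In DU6i against DBA 2 of 16 were higher and none lower, where 4.79% and 6.68% were, with a median of 0.37 beside -0.03. Mgll, the monoacylglycerol lipase that completes the release of fatty acids, read 18241 in DU6, 50592 in DU6i, 30877 in DUKs and 27029 in DBA. Its log2 ratios of -0.76 and 0.90 had the signs of those of Lipe, and DU6 was lowest and DU6i highest for both enzymes.

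The lipolysis genes at 2-fold or more were signalling genes. Npr3, the clearance receptor for natriuretic peptides, which drive lipolysis in fat, read 13868 in DU6, 13151 in DU6i, 10012 in DUKs and 5929 in DBA, so DU6i was 2.22-fold above DBA. Its other chip A probe set gave a log2 ratio of 2.25 in that pair, and on chip B, where DBA did not reach the floor, the ratios were at least 1.95 and at least 1.44. Gnai1, an inhibitory G protein subunit, read 6828, 15554, 7693 and 7622 in DU6, DU6i, DUKs and DBA, 2.04-fold higher in DU6i than in DBA, and its chip B probe set gave a log2 ratio of at least 1.08, with DBA under the floor. Akap1, a mitochondrial anchor of protein kinase A, read 20637 in DUKs on chip B and did not reach the floor in DU6, at least 9.14-fold lower, but its chip A probe set gave a log2 ratio of 0.12. No probe set was annotated to Pnpla2, Abhd5, Plin1 or Adrb3 alone, so these were not analysed here.

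**Figure D4:**
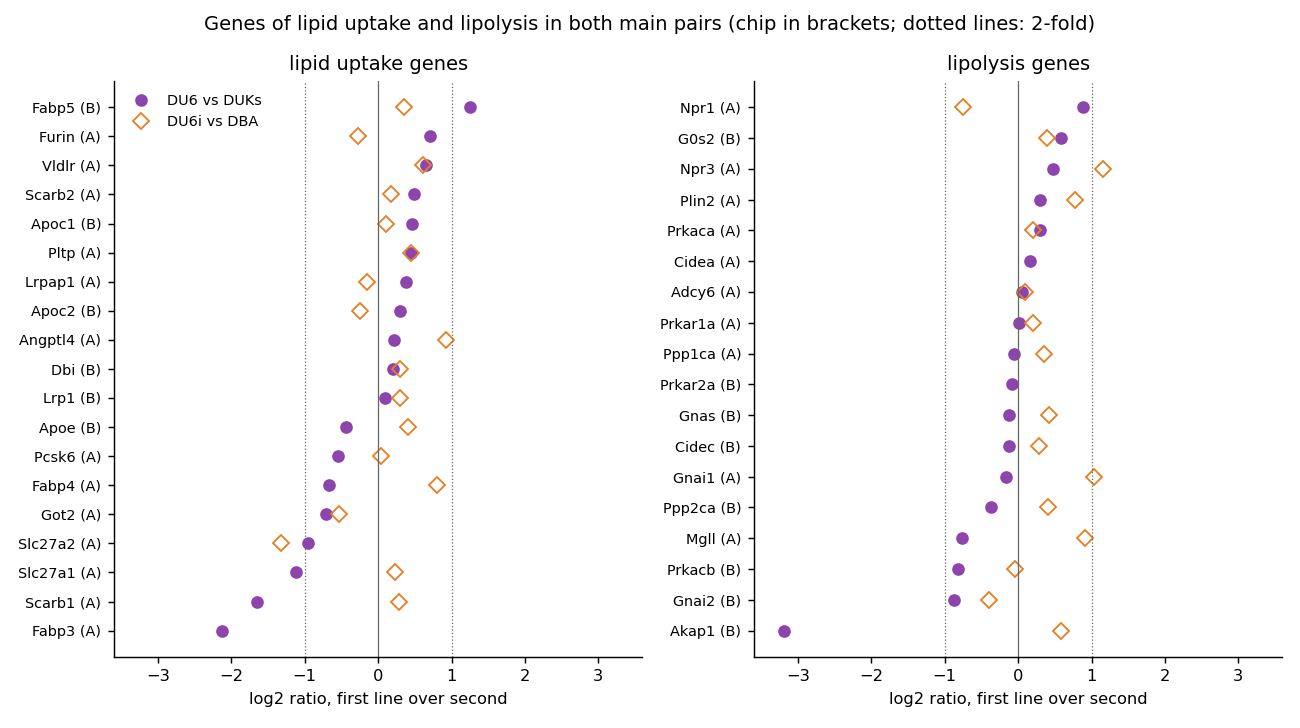
Log2 ratios of the measured genes of lipid uptake and of lipolysis in DU6 over DUKs (filled circles) and DU6i over DBA (open diamonds), with the chip in brackets and dotted lines at 2-fold. Ratios against a signal under the floor, as for Scarb1 and Akap1 in DU6, are bounds, and most genes lie between the dotted lines in both pairs.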

How the data were processed

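Total RNA of epididymal fat was pooled by line and hybridised to Affymetrix chips A and B. The deposited values are intensities on a linear scale, which the authors obtained from Data Mining Tool 1.2 and Microarray Suite 4.0.1 and scaled over the whole array, per the labels. Between 12.8% and 30.5% of them per array were below 0, and detection calls were not used. That they are perfect-match less mismatch averages is not stated in the sources used here.

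The 110 control probe sets were left out, which left 13069. Before the log2 transform the floor replaced any signal that did not exceed it, and a ratio against the floor is written as "at least". The brightest probe set stood for a gene. An array had 3045 to 3334 probe sets over the floor on chip A and 1639 to 1823 on chip B, and precision is limited by the number of arrays. Lines were compared within a chip only. Limma 3.58.1 (R 4.3.3) was fitted per chip on probe sets that exceeded the floor on 2 or more of 4 arrays. The neighbour position and the limma step were tested on simulated data. The simulation placed no changed probe set at the very end of the brightness range, where neighbours are mostly dimmer, as for Lipe. Its limma shifts were far larger than the differences of the 3 genes here. Other computations used Python 3.11.15. Named genes were all probe sets of the 3 genes, list members at 2-fold or more in either main pair, 8 fixed partners, the 5 genes nearest in pattern and the 3 brightest markers. The members, lists and rules were chosen with earlier results of these data known. Coordinates and promoters are RefSeq's for GRCm38.p6, used by symbol, and the arrays were not placed on a genome. Alternatives were quantile normalisation, rescaling, other floors, log2(signal + floor), other numbers of neighbours, other probe sets, no filter and each line left out.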

Additional observations from a re-analysis of the deposited data

Results flagged for a closer look

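For 3 readings the main pairs ran in opposite directions, lower in DU6 than in DUKs and higher in DU6i than in DBA. The log2 ratio of DU6i over DBA less that of DU6 over DUKs was 2.26 for Lpl, 1.9998 for Lipe and 1.56 for Cd36 on chip A. Each side of each pair is 1 pool, and the difference was not tested. The 200 probe sets equally bright to Lipe on chip A had opposite medians in these pairs too, at -0.51 and 0.49, as did those of Cd36, at -0.47 and 0.46, while those of Lpl were at -0.13 and 0.15. For Cd36 on chip A the DU6 against DUKs ratio of -0.42 was within the technical SD of 0.44, and it turned to 0.045 less the neighbours' median and to 0.067 after quantile normalisation. For Cd36 on chip B both ratios were above 0, at 0.08 and 0.36.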

How the results depend on the processing

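Of 122 values under alternative settings, 102 kept their place: limma differences kept their direction and side of the threshold, ratios and percentiles stayed within what 1 technical SD of the ratio spans, and counts within 1.5 times. The other values were 17 that moved further and 3 limma differences that changed sign. Part of the 102 was fixed in advance. Every array already had a trimmed mean of 2500, so rescaling could change next to nothing. The other floors lay under the signals of the 4 readings, so the ratios of the 3 genes could not change with them. Quantile normalisation gave 0.46 for Lpl and 0.29 for Lipe in DU6i against DBA. Less the median of equally bright probe sets, Lipe was -0.52 in DU6 against DUKs and 0.49 in DU6i against DBA. Less the median of the adipocyte markers of the chip, a setting added after the data were seen, Lpl was -0.77 and, with its sign changed, -0.12, and Lipe -0.35 and 0.042 in these pairs. Cd36 on chip A gave -0.42 and 1.14. The other Lpl probe set was under the floor and Lipe had no other, so neither gave a value. Uptake genes at 2-fold or more in DU6i against DBA went from 1 to 0 with a higher floor and with log2(signal + floor). Lipolysis genes in DU6 against DUKs went from 1 to 3 with a lower floor and to 2 with log2(signal + floor), and in DU6i against DBA from 2 to 1 with quantile normalisation and with log2(signal + floor). With each line left out in turn, the limma difference ran from -1.30 to 0.66 for Lpl, from -0.85 to 0.80 for Lipe and from 0.06 to 0.38 for Cd36. It changed sign without DU6 for Lpl (0.66) and Lipe (0.80), and without DUKs for Lipe (0.15). With all probe sets kept, dim ones too, 5 passed limma in place of 0, in a fit with many variances of exactly 0 that limma itself warned about, and every other setting passed 0. The cause of the other moves was not tested. No paired analysis was possible because the labels give no replicate numbers and each line is 1 pool. Signals under the floor, such as those of the second Lpl probe set, hold no order.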

Other observations

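DU6 and DBA, and DU6i and DUKs, were alike in the 5' control signal of pyruvate carboxylase. In DU6 against DBA, Scarb1 was at least 3.14-fold lower, Slc27a2 at least 3.03-fold lower and Akap1 at least 2.78-fold lower, while Npr3 was 2.34-fold higher. In DU6i against DUKs, Fabp5 was 2.42-fold higher and Gnai1 2.02-fold higher, and Vldlr at least 2.66-fold higher, while Fabp3 was at least 6.48-fold lower and Akap1 2.19-fold lower. These Akap1 ratios are from chip B. The chip A probe set of Akap1 differed little between the lines, at 2605 in DU6, 2283 in DU6i, 2404 in DUKs and 2544 in DBA. Apoe and Gnas, described next, also passed 2-fold in both pairs.

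Apoe and Gnas are list genes with bright probe sets on both chips, picked here for their disagreement after their values were seen. In DU6i against DUKs Apoe was 2.49-fold lower and Gnas 2.24-fold lower on chip B, with log2 ratios of 0.54 and 0.67 on chip A. In DU6 against DBA the log2 ratio of Apoe was 1.29 on chip B and -0.66 on chip A, and that of Gnas was 1.46 and -0.58.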
